A study of Homo sapiens with 12 samples.

Results

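The STAT (signal transducer and activator of transcription) genes encode the transcription factors through which cytokine receptors act on the nucleus. The set was chosen by gene symbol and holds 6 genes, STAT2, STAT3, STAT4, STAT5A, STAT5B and STAT6. Of these, 5 had a probe set carrying their symbol alone, 1 each, among 32321 probe sets and 18404 named genes on the array. STAT2 had none under that symbol alone and was not analysed here.

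When a cytokine joins its receptor chains, Janus kinases bound to those chains phosphorylate the receptor and then the STAT protein. The phosphorylated STAT proteins pair, enter the nucleus and bind DNA near their target genes. SOCS proteins, which are themselves STAT targets, and several phosphatases end the signal. Hodgkin and Reed-Sternberg cells, the tumour cells of classical Hodgkin lymphoma, are known for active STAT3, STAT5 and STAT6, and for cytokine loops such as that of interleukin-13. Arrays measure the transcript of a STAT gene and not the phosphorylation that activates the protein.

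The levels come from 12 one-colour Affymetrix whole-transcript arrays of U-HO1 and L-1236, established lines of Hodgkin lymphoma. U-HO1 cells, which the labels write UHO-1 or L-UHO-1, grew in IMDM and L-1236 cells in RPMI 1640, so line and medium cannot be told apart. In each line, 3 arrays are labelled siGATA-3, for cells given an shRNA against GATA-3 (a lineage-defining factor of T-helper 2 cells), and 3 are labelled siSCR, for a control shRNA without function. All cells were transduced, kept for 3 days and sorted for GFP, and the RNA of 25000 sorted cells was amplified for each array. Values are deposited log2 levels, and 1 unit is a doubling on that reading. A level can be set against the same gene on another array but not against another gene's probe set. The labels call samples by replicate number without saying what was repeated, so p-values reflect array-to-array spread within a group, which may be technical.

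GATA3, the shRNA target, did not separate by label, and arrays are called here by their labels only. Its level ran between 10.12 and 11.07 on U-HO1 siGATA-3 arrays and between 10.24 and 11.24 on U-HO1 siSCR arrays. In L-1236 it ran between 10.00 and 10.80 on siGATA-3 arrays and between 9.95 and 10.69 on siSCR arrays. The log2 difference, siGATA-3 minus siSCR, was -0.32 ± 0.31 (SE) in U-HO1 and 0.03 ± 0.31 in L-1236. Array medians lay between 6.96 and 7.09. TNFRSF8, which encodes CD30, the defining surface marker of Hodgkin cells, averaged 10.25 in U-HO1 and 9.63 in L-1236. Over 10 Hodgkin markers, TNFRSF8 among them, the mean level ran between 9.55 and 9.79 in U-HO1 and between 9.33 and 9.50 in L-1236. At a limma adjusted p under 0.05 on siSCR arrays, 5 of the 10 were higher and 2 lower in U-HO1. Over all probe sets, 13.3% were higher and 12.5% lower. CD40 averaged 7.74 in U-HO1 and 9.69 in L-1236, and CD274 averaged 8.09 and 9.98. Over 9 T-cell markers the mean level stayed between 6.21 and 6.55 on the 12 arrays, although CD4, a member of that list that monocytic cells also express, averaged 6.75 in U-HO1 and 8.72 in L-1236. Mean levels ran between 6.43 and 6.69 over 5 measured monocyte markers. The B-cell factor PAX5 averaged 7.65 in U-HO1 and 9.65 in L-1236, and the 7 measured B-cell markers together ran between 6.57 and 6.70 in U-HO1 and between 7.16 and 7.33 in L-1236. On siSCR arrays 2 of the 7, PAX5 and CD22, were lower in U-HO1 at a limma adjusted p under 0.05, and 5 did not pass. Over all probe sets, 12.5% were lower. CD22 averaged 6.34 in U-HO1 and 8.96 in L-1236, while BLK averaged 7.59 and 7.43. In both lines the B-cell surface gene MS4A1 averaged below 6, at 5.79 in U-HO1 and 5.72 in L-1236.

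Promoter sequence is shown for STAT3 and STAT6, the member called on the interferon mean in L-1236 and the member with the largest slope on GATA3 in both lines. Each window holds the 250 bases before the RefSeq transcription start in build GRCh38.p14, on the minus strand, read 5′ to 3′. The STAT3 window is chr17:42388443-42388692, and the STAT6 window is chr12:57110290-57110539. Capitals mark a match of a searched motif.

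STAT3: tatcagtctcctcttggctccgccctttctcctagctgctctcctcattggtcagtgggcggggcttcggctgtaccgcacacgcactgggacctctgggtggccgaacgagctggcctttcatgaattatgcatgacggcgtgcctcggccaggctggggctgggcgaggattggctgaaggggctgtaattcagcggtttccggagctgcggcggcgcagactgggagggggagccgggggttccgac

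STAT6: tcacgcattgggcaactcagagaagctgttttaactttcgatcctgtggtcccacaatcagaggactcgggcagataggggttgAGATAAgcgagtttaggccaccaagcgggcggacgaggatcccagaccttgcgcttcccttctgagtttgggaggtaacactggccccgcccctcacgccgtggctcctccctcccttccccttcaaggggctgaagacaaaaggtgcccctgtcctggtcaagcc

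The motifs searched, on both strands, were the interferon-stimulated response element core (a pair of GAAA runs 2 bases apart), the interferon-gamma-activated site TTCNNNGAA, the STAT6-preferred site, in which TTC and GAA stand 4 bases apart, and the GATA cores TGATAA and AGATAA. None of these letters occurred in the STAT3 window. The STAT6 window held AGATAA, 166 to 161 bases before the start, and 9.19% of 34943 windows of this length held that core. Among the other members, only the first of 3 STAT5A windows held a match, to the STAT6-preferred site, which 5.39% of windows held. A match is a run of letters and says nothing about binding in these cells. STAT5B, STAT5A and STAT3 are neighbours in that order on chromosome 17, STAT6 lies on chromosome 12 and STAT4 on chromosome 2.

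Between the lines, STAT4, STAT3 and STAT5A were higher in U-HO1 and STAT6 was lower. On siSCR arrays STAT4 was 8.99-fold, STAT3 1.91-fold and STAT5A 1.56-fold higher in U-HO1 than in L-1236, and STAT6 was 2.05-fold lower. Of the 5 members, 4 passed an adjusted p under 0.05 in limma, where 25.8% of all probe sets did. By direction, 3 members were higher, against 13.3% of probe sets, and 1 was lower, against 12.5%. In such bulk RNA, fewer expressing cells and less RNA per cell cannot be told apart.

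STAT6, which carries interleukin-4 and interleukin-13 signals, read 10.44, 10.64 and 10.68 on U-HO1 siGATA-3 replicates 1, 2 and 3 and 10.14, 10.28 and 10.74 on U-HO1 siSCR replicates 1, 2 and 3. In L-1236 it read 11.45, 11.84 and 11.64 on siGATA-3 arrays and 11.24, 11.22 and 11.80 on siSCR arrays. The 6 U-HO1 arrays all lay below the 6 L-1236 arrays, and siSCR replicate 3 was the highest siSCR array in each line. The siSCR means were 10.38 ± 0.31 in U-HO1 and 11.42 ± 0.33 in L-1236 (SD, n = 3 each), a log2 difference of -1.03 with a 95% interval of -1.43 to -0.64 and a limma adjusted p of 0.000979.

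STAT3, the main carrier of interleukin-6, interleukin-10 and interleukin-21 signals, read 11.58, 11.72 and 11.52 on U-HO1 siGATA-3 arrays and 11.65, 11.35 and 11.68 on U-HO1 siSCR arrays, replicates 1, 2 and 3 in order. In L-1236 it read 10.91, 10.94 and 10.65 on siGATA-3 arrays and 10.47, 10.45 and 10.96 on siSCR arrays. The lines did not overlap, and the L-1236 siSCR arrays spread the most, with replicate 3 well above the other 2. The siSCR means were 11.56 ± 0.18 in U-HO1 and 10.63 ± 0.29 in L-1236 (SD, n = 3 each), a log2 difference of 0.93 with an interval of 0.62 to 1.24 and a limma adjusted p of 0.000419.

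STAT5A and STAT5B encode closely related proteins that carry interleukin-2 family, growth hormone and prolactin signals. Because the genes are near-identical over long stretches, cross-hybridisation between their probe sets was not tested, and each reading is uncertain to that extent. STAT5A read 10.49, 10.88 and 10.57 on U-HO1 siGATA-3 arrays and 10.93, 10.46 and 10.61 on U-HO1 siSCR arrays. It read 10.03, 10.26 and 10.03 on L-1236 siGATA-3 arrays and 10.02, 9.95 and 10.10 on L-1236 siSCR arrays. Every U-HO1 array was above every L-1236 array, and the siSCR difference was 0.64 log2 units with an interval of 0.36 to 0.93 and a limma adjusted p of 0.00283. STAT5B read 9.24, 8.92 and 9.06 on U-HO1 siGATA-3 arrays and 9.06, 9.09 and 9.19 on U-HO1 siSCR arrays. It read 9.41, 9.20 and 9.27 on L-1236 siGATA-3 arrays and 9.20, 9.41 and 9.22 on L-1236 siSCR arrays. The lines overlapped, and the siSCR difference of -0.16 had an interval of -0.37 to 0.05 and a limma adjusted p of 0.278. Over both labels it was -0.19 with a limma adjusted p of 0.0443, where 35.1% of probe sets passed and all 5 members did.

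STAT4, which carries interleukin-12 signals in T cells and natural killer cells, read 9.95, 9.65 and 9.66 on U-HO1 siGATA-3 arrays and 9.72, 9.59 and 9.80 on U-HO1 siSCR arrays. In L-1236 it read 6.48, 6.74 and 6.51 on siGATA-3 arrays and 6.49, 6.42 and 6.70 on siSCR arrays. All L-1236 readings lay below the lowest array median, so the L-1236 level may be near the array's background, which the deposited values do not give. The siSCR means were 9.70 ± 0.11 in U-HO1 and 6.53 ± 0.15 in L-1236 (SD, n = 3 each), a log2 difference of 3.17 with an interval of 2.93 to 3.41 and a limma adjusted p of 2.13e-09. The T-cell markers CD3E and CD3D averaged 6.10 and 5.95 in U-HO1 and 6.03 and 5.90 in L-1236, all below the lowest array median, while CD4, from the same list of 9, averaged 6.75 in U-HO1 and 8.72 in L-1236.

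**Figure D1:**
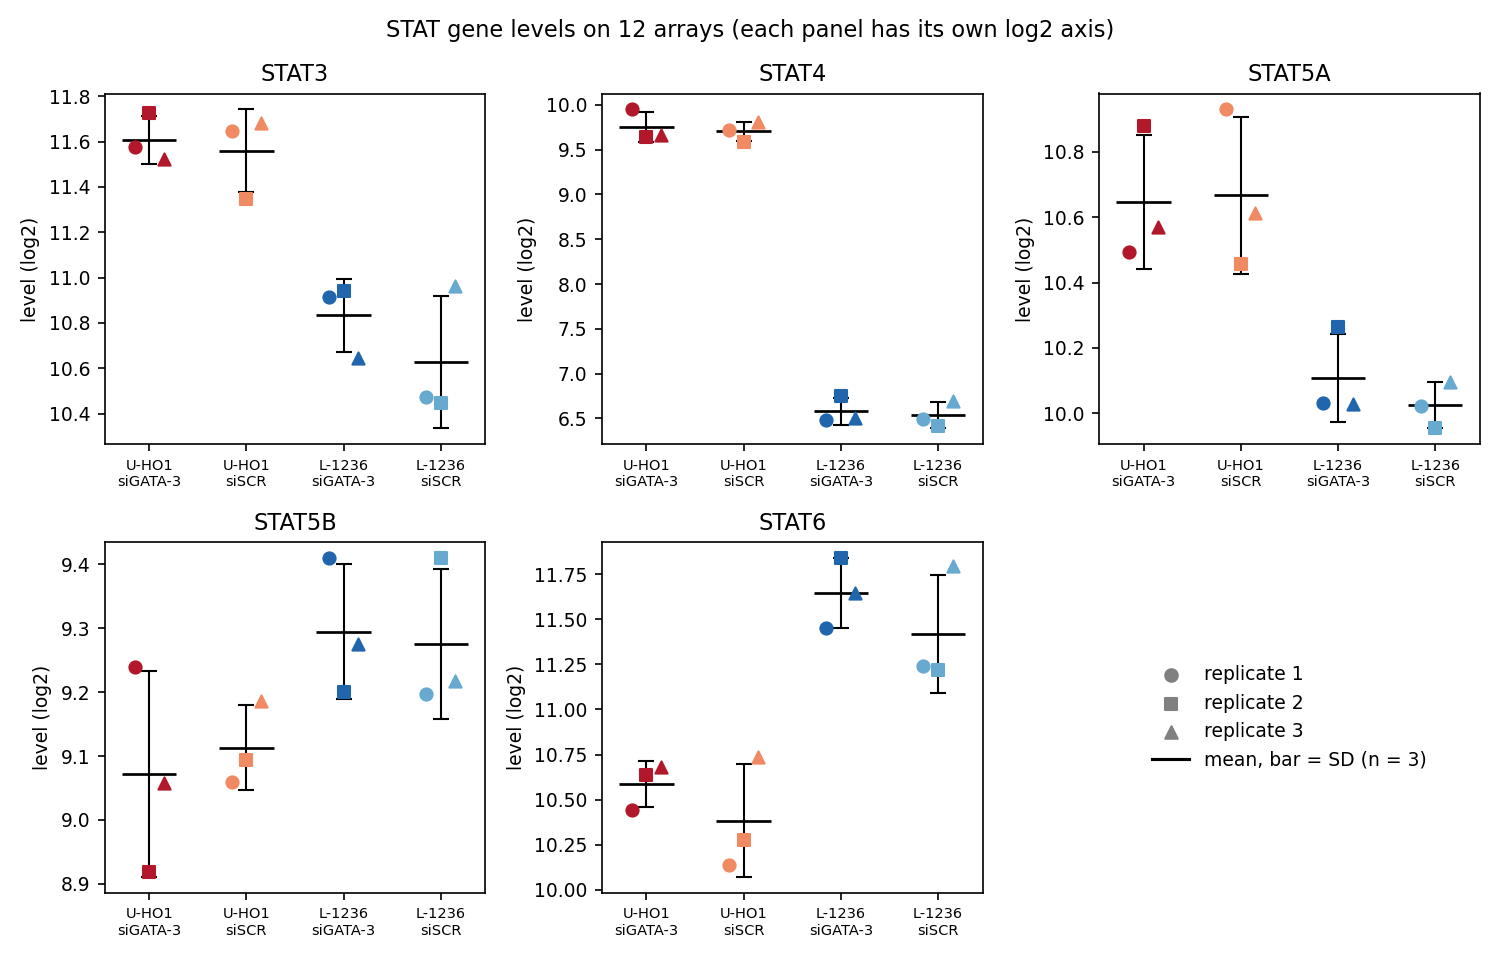
Level (log2) of 5 STAT genes on each of 12 arrays, with the U-HO1 groups left of the L-1236 groups; points are replicates, and the line and bar are the mean and SD of 3 arrays. STAT4, STAT3 and STAT5A lie higher in U-HO1, with STAT4 between 9.59 and 9.95 there and between 6.42 and 6.74 in L-1236, while STAT6 lies lower in U-HO1.

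The receptors, kinases, inhibitors and targets around the STAT genes were read in the same comparison of siSCR arrays. Over all probe sets, 13.3% were called higher and 12.5% lower in U-HO1. The counts for each list stand beside those shares, and no list was tested as a set. Of 29 measured ligand genes, 3 were higher and 3 lower in U-HO1. IL5, the eosinophil growth factor, was 5.09-fold higher in U-HO1 (limma adjusted p = 0.00023), and IL6, whose product signals through STAT3, was 3.40-fold lower (limma adjusted p = 1.65e-07). The L-1236 IL5 mean, 5.52, lay below the lowest array median. On U-HO1 siSCR replicates 1, 2 and 3 IL5 read 8.64, 8.14 and 6.83, so replicate 3 also lay below that median. Where the dimmer line lay so low, as for STAT4, IL5, CRLF2, GHR and PTPRK, the reading was not shown to be above background, and the fold is one of readings that may understate the difference in RNA. The 29 ligands had a median log2 difference of -0.04, against 0.0006 over all probe sets.

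Of 36 measured receptor genes, 6 were higher and 10 lower in U-HO1, with a median of 0.0004. Over all probe sets, 13.3% were higher and 12.5% lower. CRLF2, the receptor chain for thymic stromal lymphopoietin, averaged 10.08 ± 0.26 in U-HO1 and 6.51 ± 0.15 in L-1236 (SD, n = 3 each), 11.9-fold higher in U-HO1. IL2RB, a chain shared by the interleukin-2 and interleukin-15 receptors, was 4.49-fold higher. IFNGR1, the interferon-gamma binding chain, was 3.60-fold higher. All 3 had a limma adjusted p at or below 4.72e-05.

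Both chains of the type II interleukin-4 receptor, which feeds STAT6, were lower in U-HO1 along with STAT6. IL4R averaged 8.78 ± 0.22 in U-HO1 and 9.95 ± 0.19 in L-1236 (SD, n = 3 each), 2.25-fold lower in U-HO1 with a limma adjusted p of 1.71e-05. IL13RA1 was 2.42-fold lower with a limma adjusted p of 0.000538. Among the receptor genes that feed STAT3, IL10RA, the interleukin-10 binding chain, was 3.99-fold lower in U-HO1 and IL6ST, the signalling chain gp130, 1.81-fold lower.

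The growth hormone receptor gene GHR was 6.19-fold lower in U-HO1, where its mean of 6.01 lay below the lowest array median, and CSF2RB, the chain shared by the interleukin-3, interleukin-5 and GM-CSF receptors, was 4.83-fold lower. IL12RB2, the signalling chain of the interleukin-12 receptor upstream of STAT4, read 5.89 ± 0.04 in U-HO1 and 5.77 ± 0.01 in L-1236 (SD, n = 3 each), below the lowest array median in both lines (limma adjusted p = 0.313). IL2RG, the common gamma chain, differed by -0.19 with an interval of -0.50 to 0.13.

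Of the 4 Janus kinase genes, only JAK3, the partner of the common gamma chain, passed on siSCR arrays, at 8.04 ± 0.12 in U-HO1 and 8.64 ± 0.12 in L-1236 (SD, n = 3 each), 1.52-fold lower in U-HO1 with a limma adjusted p of 0.00124. JAK2 differed by -0.43 (limma adjusted p = 0.0605), JAK1 by -0.22 (limma adjusted p = 0.0902) and TYK2 by -0.20 (limma adjusted p = 0.171). Over both labels all 4 passed and were lower in U-HO1, where 35.1% of all probe sets passed in either direction.

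Of 19 measured inhibitors, 7 were higher and 5 lower in U-HO1, where 13.3% and 12.5% of all probe sets were. SOCS1, a feedback inhibitor of Janus kinases that is often mutated in Hodgkin lymphoma, was 1.75-fold higher (limma adjusted p = 0.000789). PTPN1, a phosphatase of Janus kinases and STAT6, was 1.37-fold higher (limma adjusted p = 0.00406). PTPRK, a receptor phosphatase, was 4.17-fold higher (limma adjusted p = 6.83e-08), against an L-1236 mean of 5.88 below the lowest array median. CISH, a feedback inhibitor induced by STAT5, was 1.38-fold lower (limma adjusted p = 0.0214), a call lost without U-HO1 siSCR replicate 1 or 2 or without L-1236 siSCR replicate 3, and with only the 6 arrays compared in the fit (adjusted p = 0.0769). SOCS3, the feedback inhibitor of gp130, differed by -0.30 (limma adjusted p = 0.052). Of 12 measured partners, 5 were higher and none lower, with a median of 0.38 and with JUN, an AP-1 subunit that can bind with STAT3, 2.73-fold higher. Without U-HO1 siSCR replicate 3, the number of partners called fell to 2.

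**Figure D2:**
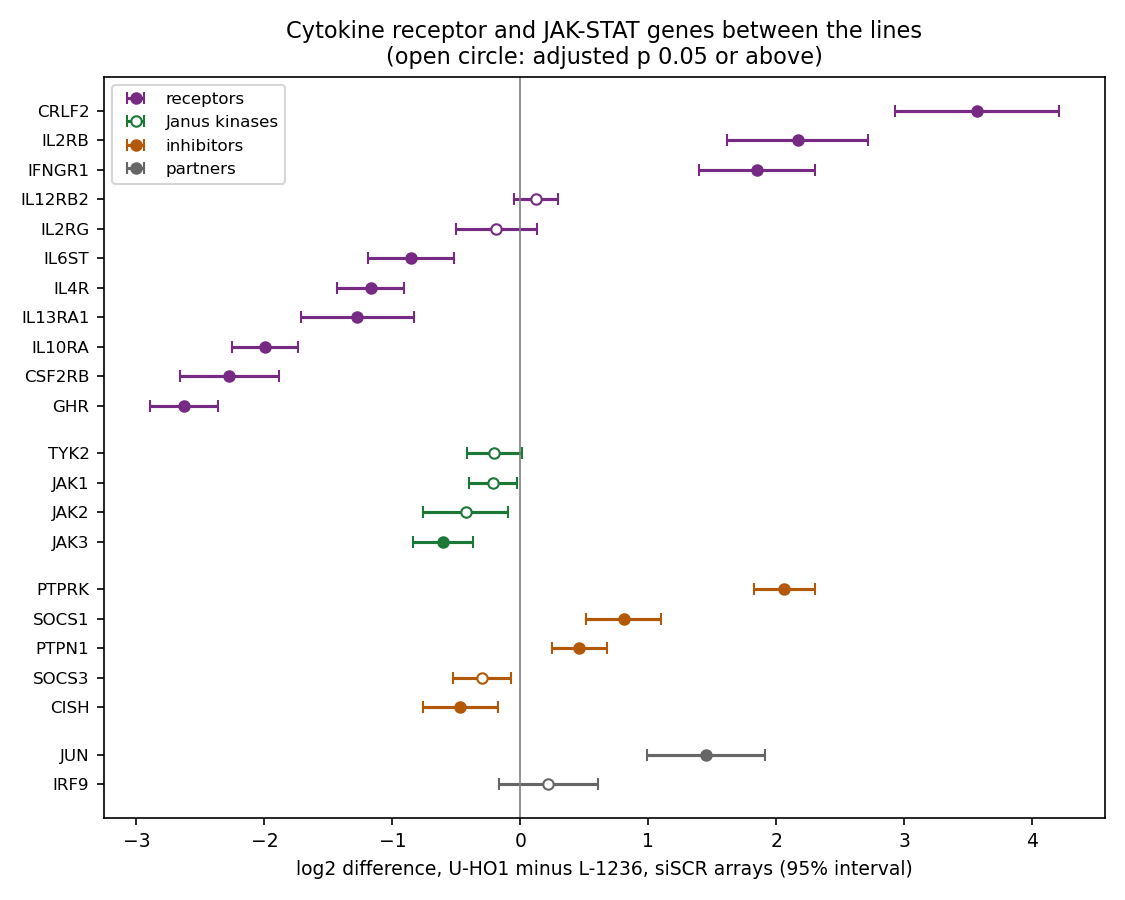
Log2 difference, U-HO1 minus L-1236 on siSCR arrays (3 arrays a line), with 95% intervals, for the Janus kinases and chosen receptor, inhibitor and partner genes. Filled circles passed an adjusted p of 0.05. The chosen genes are a fixed set and the largest called differences of each list, so the circles do not give the share called. In the full lists, 20 of 36 receptors, 7 of 19 inhibitors and 7 of 12 partners did not pass. CRLF2 (3.57) and GHR (-2.63) lie at the ends among receptors, and all 4 Janus kinases lie below 0, with JAK3 the one filled.

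Known targets of each STAT did not all lie on the side of their factor. Of 15 measured STAT6 targets, 3 were higher and 7 lower in U-HO1, with a median of -0.30. Over all probe sets, 13.3% were higher and 12.5% lower. ALOX15, a lipoxygenase induced by interleukin-4, was 26.6-fold lower in U-HO1, and MAOA, a monoamine oxidase, 7.16-fold lower. In U-HO1, ALOX15 ran between 6.64 and 7.23 and MAOA between 6.93 and 7.27, both around the lowest array median of 6.96. Those readings were not shown to be above background, and the folds may understate the difference in RNA. FCER2, the low-affinity IgE receptor, had a log2 difference of -2.32 (limma adjusted p = 1.69e-06). CCL17, the Hodgkin chemokine TARC, was 1.69-fold higher in U-HO1 (limma adjusted p = 0.000342). Of 20 STAT3 targets, 3 were higher and 5 lower with a median of 0.08. PRDM1, which encodes the plasma-cell factor BLIMP-1, was 8.92-fold higher and PIM2, a survival kinase, 2.57-fold lower.

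Of 15 STAT5 targets, 1 was higher and 6 were lower with a median of -0.05, where 13.3% of all probe sets were higher and 12.5% lower. The one that was higher, the cyclin gene CCND2, was 3.08-fold higher, and the lymphotoxin gene LTA was 5.62-fold lower. Of 15 measured genes of the STAT4 and T-helper 1 axis, 2 were higher and 5 lower with a median of -0.22. The chemokine receptor gene CXCR3 was 2.18-fold higher. TNF was 3.12-fold lower, EOMES, a T-box factor, was lower by a log2 difference of -1.48, while TBX21, the T-helper 1 master factor, differed by -0.29 (limma adjusted p = 0.194).

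Between siGATA-3 and siSCR arrays, the pairwise comparison that the submitters describe, no STAT gene passed in either line. In U-HO1 the log2 differences ran between -0.04 for STAT5B and 0.20 for STAT6, with 0 of 5 members called by limma (smallest adjusted p 1.00), where 0% of all probe sets were called. At an unadjusted p under 0.05, 0 members passed in U-HO1, where 1.05% of probe sets did. In L-1236 the differences ran between 0.02 for STAT5B and 0.23 for STAT6, again with 0 of 5 called by limma (smallest adjusted p 0.925) and 0% of all probe sets. At an unadjusted p under 0.05, 0 members passed in L-1236, where 4.77% of probe sets did.

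The intervals give the sizes of difference that these arrays leave possible. In U-HO1 the 95% interval ran between -0.19 and 0.59 for STAT6 and between -0.26 and 0.36 for STAT3. In L-1236 it ran between -0.17 and 0.62 for STAT6 and between -0.11 and 0.52 for STAT3. The siGATA-3 effect differed between the lines, U-HO1 minus L-1236, by between -0.16 and 0.01 log2 units over the 5 members, with 0 called, 0% of probe sets called and 0 members at an unadjusted p under 0.05, where 2.46% of probe sets were.

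**Figure D3:**
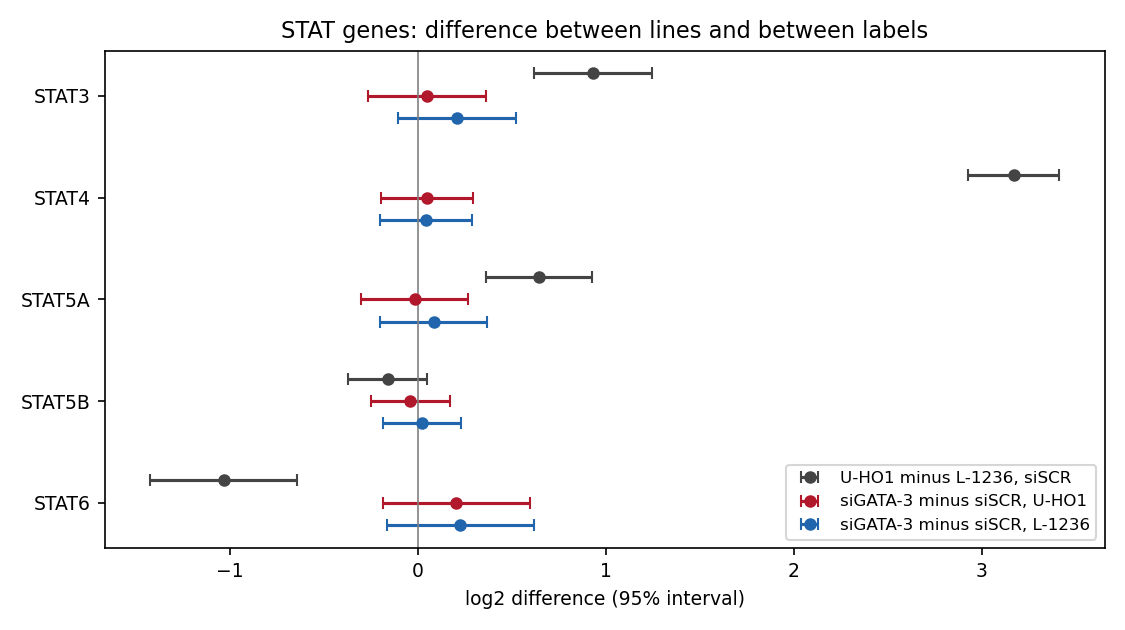
Log2 difference with 95% interval for each STAT gene, U-HO1 minus L-1236 on siSCR arrays (grey) and siGATA-3 minus siSCR in U-HO1 (red) and L-1236 (blue), 3 arrays a group. The line differences reach 3.17 for STAT4 and -1.03 for STAT6, whereas all siGATA-3 minus siSCR intervals include 0.

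Since GATA3 varied within each label, the STAT levels were also set against the GATA3 level of each array, with a mean and a slope for each line in limma. Of the STAT genes, STAT6 had the largest slope on GATA3 in both lines, and it was negative in both, but no STAT slope passed adjustment. In U-HO1 the 3 arrays with GATA3 at 10.24 or below had STAT6 at 10.64, 10.68 and 10.74, and the 3 arrays with GATA3 at 10.90 or above had STAT6 at 10.14, 10.28 and 10.44. The 2 sets of arrays did not overlap in STAT6, and each set held arrays of both labels. Both replicate 1 arrays fell in the set with high GATA3 and both replicate 3 arrays in the set with low GATA3, while the replicate 2 arrays were split. GATA3 and replicate number are therefore only partly separated in U-HO1. In L-1236 the arrays with the 2 lowest GATA3 levels, siSCR replicate 3 and siGATA-3 replicate 2, had the 2 highest STAT6 levels, 11.80 and 11.84.

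The STAT6 slope was -0.45 ± 0.14 (SE) log2 units per log2 unit of GATA3 in U-HO1 (limma adjusted p = 0.660) and -0.58 ± 0.19 in L-1236 (limma adjusted p = 0.803). The mean of both lines' slopes was -0.51 ± 0.12 (limma adjusted p = 0.158), where 0.161% of probe sets were called. Of the 5 members, 0 were called on the slope in U-HO1, where 0.0464% of probe sets were, and 0 in L-1236, where 0.0124% were. The difference of the STAT6 slopes, U-HO1 minus L-1236, was 0.13 with an interval of -0.38 to 0.64.

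STAT5B went the other way in L-1236, where its 2 highest readings, both 9.41, fell on the 2 arrays with the highest GATA3. Its slope there was 0.26 ± 0.13 (adjusted limma p = 1.00), and its correlation with GATA3 over 6 arrays was r = 0.92 (exact two-sided permutation p = 0.0333) with rho = 0.54 (p = 0.297). Without the 2 arrays farthest from the median GATA3 level r was 0.30, so the relation rests on those arrays. STAT4 in L-1236 had r = -0.84 with GATA3 (exact permutation p = 0.0625) and rho = -0.89 (p = 0.0333), and r = -0.96 without the 2 farthest arrays, over a STAT4 range of 0.33 log2 units. Those STAT4 readings all lay below the lowest array median and may be near background. STAT6 in L-1236 had r = -0.74 (exact permutation p = 0.106), rho = -0.77 (p = 0.103) and r = -0.85 without the 2 farthest arrays. No pooled r is given for U-HO1 and GATA3, because the U-HO1 arrays fell into the 2 sets above.

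**Figure D4:**
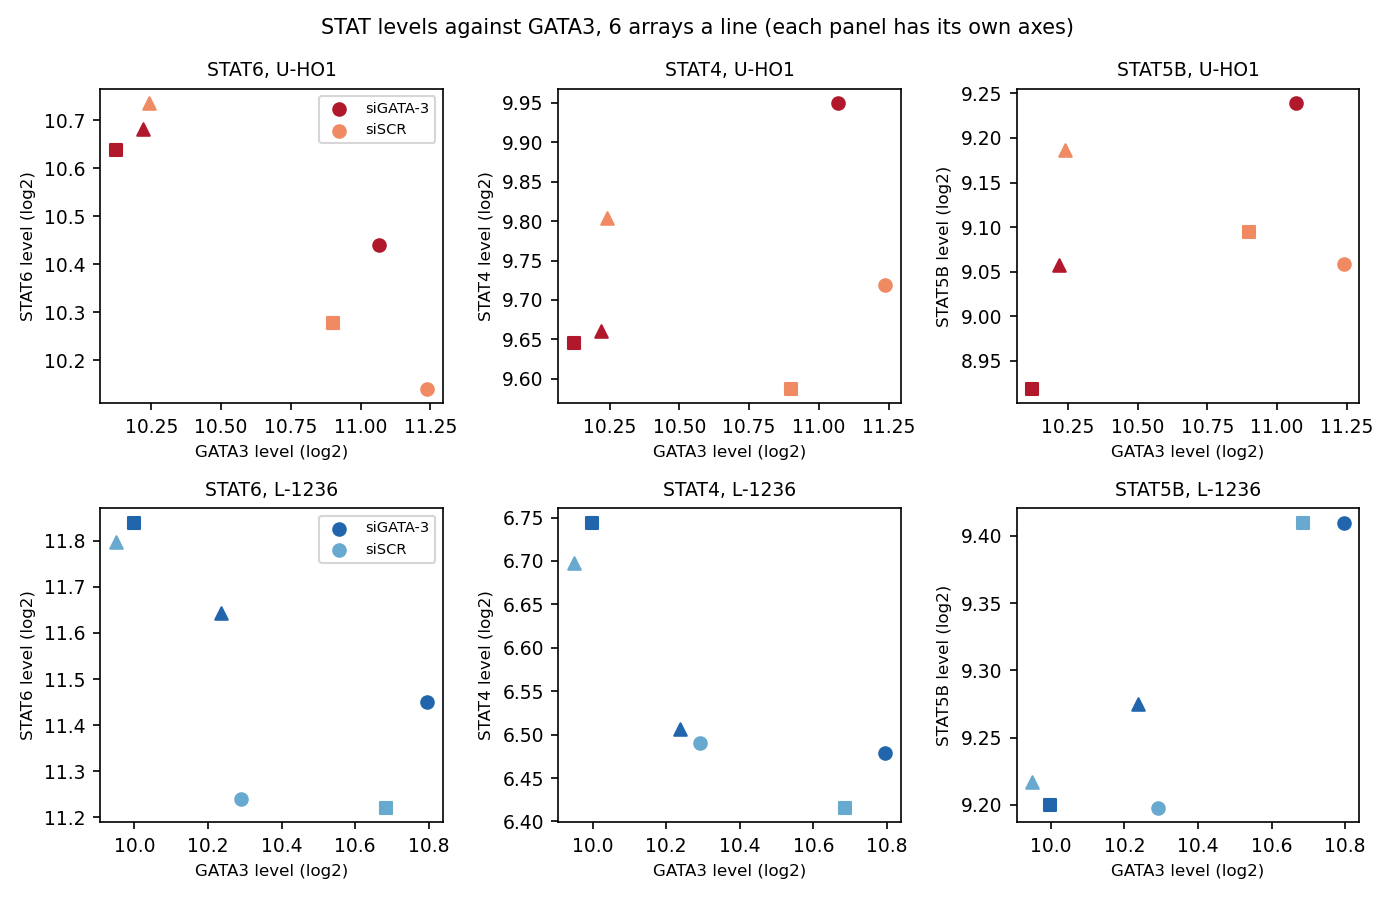
Level (log2) of STAT6, STAT4 and STAT5B against the GATA3 level (log2), 6 arrays a line, with U-HO1 above L-1236; colour gives the label and shape the replicate. STAT6 is between 10.64 and 10.74 on the 3 U-HO1 arrays with low GATA3 and between 10.14 and 10.44 on the 3 with high GATA3.

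The L-1236 arrays differed in their interferon state, measured as the mean level of 42 interferon-response genes that include no STAT gene. That mean ran between 8.27 and 8.49 in U-HO1 and between 7.85 and 9.68 in L-1236. In L-1236 it read 8.99, 9.52 and 8.41 on siGATA-3 replicates 1, 2 and 3 and 7.9998, 7.85 and 9.68 on siSCR replicates 1, 2 and 3. The labels overlapped, and siSCR held both the lowest and the highest array.

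STAT3 followed the interferon mean in L-1236. Ordered by rising interferon mean, the 6 L-1236 arrays had STAT3 at 10.45, 10.47, 10.65, 10.91, 10.94 and 10.96, which is the same order. The slope was 0.30 ± 0.057 (SE) log2 units of STAT3 per log2 unit of the interferon mean, with an interval of 0.18 to 0.42 and a limma adjusted p of 0.0494. Of the 5 members, 1 was called on this slope, STAT3, where 0.381% of 32279 probe sets were. Pearson's r over the 6 arrays was 0.97 (exact two-sided permutation p = 0.00833), rho was 1.00 (p = 0.00278, the smallest that 6 arrays gave), and r was 0.96 without the 2 arrays farthest from the median. The call sat at the threshold: leaving out 1 array at a time kept the slope between 0.29 and 0.33 but moved the adjusted p between 0.0248 and 0.329, and it passed only without U-HO1 siSCR replicate 2 or 3.

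STAT6, STAT4 and STAT5A also read higher in L-1236 on arrays with a higher interferon mean, without passing adjustment. STAT6 had a slope of 0.31 ± 0.11 (limma adjusted p = 0.411) and r = 0.88 (exact permutation p = 0.0486), with r = 0.78 without the 2 farthest arrays. STAT4 had a slope of 0.15 ± 0.065 (limma adjusted p = 0.596) and r = 0.88 (exact permutation p = 0.0306), with r = 0.76 without them. STAT5A had a slope of 0.11 ± 0.051 (limma adjusted p = 0.650) and r = 0.77 (exact permutation p = 0.0306), with r = 0.81 without them. For STAT4 and STAT5A the permutation p of r was 0.0583 and 0.228 after quantile normalization. By rank, rho was 0.77 for STAT4 (exact permutation p = 0.103), 0.89 for STAT6 (p = 0.0333) and 0.94 for STAT5A (p = 0.0167). All L-1236 readings of STAT4 lay below the lowest array median and may be near background. STAT5B had a slope of -0.05 ± 0.059 and r = -0.36 (exact permutation p = 0.476).

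IRF9, which joins STAT proteins in the complex that binds interferon-stimulated response elements, was the one pathway gene outside the STAT set called on this slope, at 0.43 ± 0.056 (limma adjusted p = 0.00374). It read 9.16, 9.17 and 8.93 on L-1236 siGATA-3 replicates 1, 2 and 3 and 8.55, 8.49 and 9.34 on L-1236 siSCR replicates 1, 2 and 3. Its call was lost without L-1236 siSCR replicate 2 (adjusted p = 0.0594) or 3 (adjusted p = 0.0581), and with only the 6 L-1236 arrays in the fit (adjusted p = 0.110). Of 4 Janus kinases, 36 receptors, 18 inhibitors and 20 STAT3 targets, 0 were called. JAK2 had a slope of 0.21 (limma adjusted p = 0.518), and IL10RA one of 0.24 (limma adjusted p = 0.113).

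GATA3 and the interferon mean had r = -0.56 over the 6 L-1236 arrays (exact permutation p = 0.274) and rho = -0.66 (p = 0.175). Without the 2 arrays farthest from the median GATA3 level r was -0.996. These 6 arrays do not settle whether GATA3 and the interferon mean were related. With both in 1 fit, the STAT3 slope on the interferon mean was 0.34 with a limma adjusted p of 0.142, and the STAT6 slope on GATA3 in L-1236 was -0.28. The separate parts of GATA3 and of the interferon state in the L-1236 STAT6 levels were not tested beyond this fit.

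In U-HO1 the interferon mean spanned only 0.23 log2 units, and the 2 arrays that stood apart at the top, siGATA-3 replicate 2 at 8.49 and siSCR replicate 1 at 8.47, had the 2 highest STAT5A levels, 10.88 and 10.93. The STAT5A slope was 2.03 ± 0.41 (limma adjusted p = 0.0904), with 0 of 5 members called where 0.158% of probe sets were. The STAT5A slopes differed by 1.92 between U-HO1 and L-1236, the first minus the second (limma adjusted p = 0.111), with 0 of 5 members called where 0.133% of probe sets were. No r is given for U-HO1, since 2 arrays stood apart from the other 4.

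**Figure D5:**
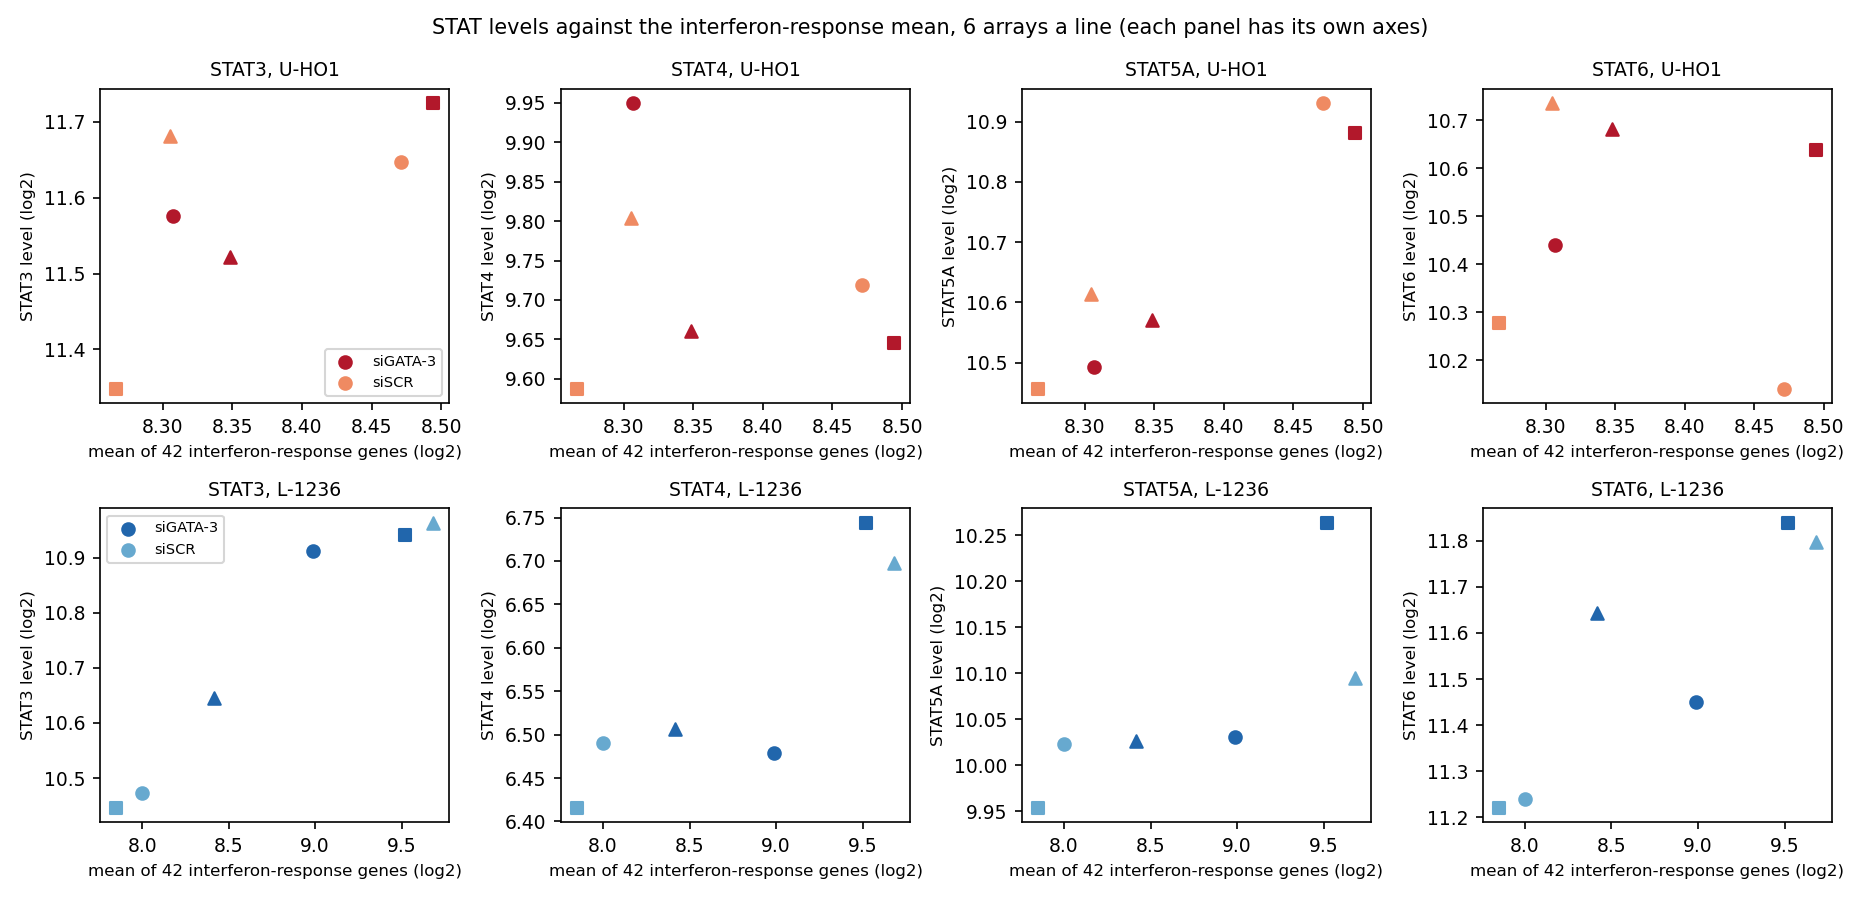
Level (log2) of STAT3, STAT4, STAT5A and STAT6 against the mean level of 42 interferon-response genes (log2), 6 arrays a line, with U-HO1 above L-1236; colour gives the label and shape the replicate. In L-1236 STAT3 lies between 10.45 and 10.96, in the order of the mean, over interferon means between 7.85 and 9.68, while U-HO1 spans 0.23 log2 units on that axis.

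The STAT genes were also set against each other over the 6 L-1236 arrays. STAT4 and STAT5A had r = 0.91 (exact permutation p = 0.00556; rho = 0.83, p = 0.0583), and r was 0.94 without the 2 arrays farthest from the median of the first gene. STAT4 and STAT6 had r = 0.89 (exact permutation p = 0.025; rho = 0.94, p = 0.0167), and r = 0.67 without them. STAT5A and STAT6 had r = 0.79 (exact permutation p = 0.0139; rho = 0.94, p = 0.0167), and r = 0.76 without them. By r, these 3 pairs had p under 0.05 among 20 tested over both lines. The L-1236 STAT4 readings in these pairs all lay below the lowest array median and may be near background. By rank, STAT3 also followed STAT5A (rho = 0.94, exact permutation p = 0.0167; r = 0.69, p = 0.0847) and STAT6 (rho = 0.89, exact permutation p = 0.0333; r = 0.82, p = 0.0958) in L-1236. Without the 2 farthest arrays r was 0.50 for STAT3 with STAT5A and 0.27 for STAT3 with STAT6. RNA was amplified for every array, and the interferon mean varied over these same L-1236 arrays, between 7.85 and 9.68. Whether either bears on these pairs was not tested. STAT5A and STAT5B had r = -0.61 in L-1236 (exact permutation p = 0.181).

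The genes most like each STAT were sought among 10887 named genes with a level above the median, by Pearson's r over 12 arrays after each line's mean was taken off. The r values are the highest of many and carry no test. STAT3 was most like TRAFD1, an interferon-induced regulator of innate signalling (r = 0.97), the receptor gene IL10RA (r = 0.96) and TRIM68, a ubiquitin ligase (r = 0.95). STAT6 was most like XPC, a DNA damage sensor (r = 0.96), the sialomucin gene CD164 (r = 0.95) and SLFN12L (r = 0.95). STAT5A was most like IER2, an immediate early gene (r = 0.96), PLA2G15, a lysosomal phospholipase (r = 0.96), and CHPF2, a chondroitin-synthesis enzyme (r = 0.95). STAT5B was most like ATF2, a bZIP transcription factor (r = 0.95), MRTFB, a coactivator of serum response factor (r = 0.94), and S100A10, a calcium-binding protein family member (r = 0.94). STAT4 was most like RFX3, a transcription factor of ciliary genes (r = 0.92), CERT1, a ceramide transporter (r = 0.90), and PPP2R5B, a phosphatase subunit (r = 0.90).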

How the data were processed

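The deposited table holds 1 log2 level for each of 32321 probe sets on 12 arrays, in 4 groups of 3 named by the labels. The authors processed the arrays with R 2.8.1, per the submitters' processing notes. How background was corrected, how arrays were normalized and summarised, and the genome build: not given in the sources used here. Base 2 was read from the range of the values, 3.86 to 13.99, and the folds rest on it.

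By the platform annotation, 19158 probe sets carried 1 symbol, 1388 several and 11775 none here. By Entrez identifier, 19128 were found in a current gene table and 0 symbols changed. The brightest probe set stood for a gene.

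All probe sets and arrays entered limma 3.58.1 in R 4.3.3 (lmFit, eBayes; 8 degrees of freedom for the residual) with 1 mean per group, or with a mean and a slope per line on GATA3 or on the mean of 42 interferon-response genes. P-values were adjusted by Benjamini-Hochberg over all probe sets, less those in the covariate. The fit was tested on simulated data. Correlations over 6 arrays used exact permutation: 20 of members with GATA3 or the interferon mean, 7 of them with p under 0.05 by r, and 20 between members. Their p-values are unadjusted, since adjustment over the members alone would count genes chosen with results known. The number of arrays limits the precision.

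The members, pathway lists and tests were chosen with earlier results of these data known. Genes named are the members, GATA3, a fixed set of pathway genes, the 3 largest differences each way of each list among those called at 2-fold or more, the called pathway genes on the L-1236 interferon slope, and the 3 most alike genes per member.

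Alternatives were a replicate block, quantile normalization, median centring, dim probe sets left out, 1 probe set per gene, another variance prior, array quality weights (statmod 1.5.0), fewer arrays, both labels, both covariates, the median of the interferon list, and each array left out. Chosen after seeing the data were the label as a term, the mean and the difference of the lines' slopes, and leaving out the 4 arrays whose GATA3 went against the label (siGATA-3 replicate 1 and siSCR replicate 3 of each line). Promoters came from RefSeq, build GRCh38.p14, which was used for them and for neighbours only.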

Additional observations from a re-analysis of the deposited data

How the results depend on the processing

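The values give no background signal, so how far dim readings such as STAT4 in L-1236 stand above it is unknown. Between the lines, 4 or 5 STAT genes were called under all 10 alternatives, which include leaving out the 4 arrays whose GATA3 went against the label, and 4 with any 1 of 12 arrays left out. Among siGATA-3 comparisons 0 members and 0 probe sets were called under each alternative. The 1 member called on the L-1236 interferon slope, STAT3, was the least stable. The count was 0 with the replicate block, with median centring, with the trended and robust prior, with only the 6 arrays of the line, with GATA3 and the interferon mean together and with the label as a term, and 2 with array quality weights. It ran between 0 and 1 with 1 array left out. The STAT3 slope itself stayed between 0.26 and 0.34, with adjusted p-values up to 0.216, and the causes of the lost calls were not tested. Array quality weights also raised the count to 5 for the L-1236 GATA3 slope, where 12648 probe sets were then called and the weights had not converged, and to 1 for the U-HO1 interferon slope. Over all probe sets, calls ran between 0 and 332 on the U-HO1 GATA3 slope (15 in the main setting), between 32 and 1898 on the L-1236 interferon slope (123) and between 0 and 1416 on the U-HO1 interferon slope (51).

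The labels do not say whether same-numbered samples were handled together. Same-numbered siGATA-3 and siSCR arrays correlated at 0.17, -0.40 and -0.22 in L-1236 and at -0.17, 0.06 and 0.32 in U-HO1 in their deviations from the group means. Differently numbered arrays correlated between -0.38 and 0.54. Deviations from a mean of 3 arrays are bound to each other, so these values cannot decide the pairing. With the replicate block the line count stayed at 4 and the STAT4 slope on GATA3 in U-HO1 was -0.13 and the STAT6 interferon slope there 0.38, both of opposite sign to the main value.

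Janus kinases called between the lines numbered 1, against 4 over both labels, 3 with quantile normalization, and 2 without dim probe sets, with 1 probe set per gene or with array weights. STAT5 targets called numbered 7, against 11 over both labels, ligands 6, against 2 without dim probe sets, and partners 5, against 3 with only the 6 arrays compared. Genes left out as dim were not tested, so the lower ligand count need not mean that a tested ligand lost its call.

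Other sign changes were of values that no test had called, some of them not small: the main slopes were -0.26 for STAT3 on GATA3 in L-1236, and -0.31 for STAT4 and -0.27 for STAT6 on the interferon mean in U-HO1. Quantile normalization gave L-1236 siGATA-3 differences of -0.024 for STAT5A and -0.063 for STAT5B, and differences of effect of -0.058 for STAT4, 0.017 for STAT5A, 0.021 for STAT5B and 0.058 for STAT6. Median centring gave -0.062 for the STAT4 difference of effect. Array quality weights gave -0.011 for STAT5B in L-1236, -0.026 for STAT3 in U-HO1, differences of effect of -0.070 for STAT4 and 0.098 for STAT6, and U-HO1 GATA3 slopes of 0.010 for STAT3 and 0.028 for STAT5A. Both covariates together gave a GATA3 slope of 0.17 for STAT3 in L-1236 and 0.021 for STAT5A in U-HO1, and an interferon slope of 0.028 for STAT5B in L-1236. The median of the interferon list gave U-HO1 slopes of 0.066 for STAT4 and 0.66 for STAT6. Without the 4 arrays named above, STAT5B was -0.066 in L-1236, STAT4 -5.2e-05 and STAT5A 0.032 in U-HO1, and the STAT4 difference of effect -0.17.

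With 1 array left out, the L-1236 siGATA-3 difference ran between -0.037 and 0.087 for STAT5B and between -0.042 and 0.12 for STAT4. The U-HO1 siGATA-3 difference ran between -0.14 and 0.11 for STAT5A, between -0.050 and 0.10 for STAT4, between -0.057 and 0.11 for STAT3 and between -0.13 and 0.035 for STAT5B. The difference of effect ran between -0.21 and 0.15 for STAT6, between -0.093 and 0.090 for STAT4, between -0.22 and 0.030 for STAT5A and between -0.15 and 0.015 for STAT5B. The U-HO1 GATA3 slope ran between -0.023 and 0.13 for STAT4 and between -0.29 and 0.13 for STAT5A. The U-HO1 interferon slope ran between -1.43 and 1.01 for STAT6 and between -0.92 and 0.035 for STAT4.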
